A study of Mus musculus with 2 samples.

Results

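The genes described here are 8 genes named for regulators of G-protein signaling (RGS), Rgs2, Rgs3, Rgs4, Rgs5, Rgs7bp, Rgs10, Rgs16 and Rgs17, together with Rgcc, 9 genes of the 31053 in the table. They were taken by name, with earlier results of these data known, and other RGS genes in the table are not among them. They were followed in primary aortic vascular smooth muscle cells (VSMCs) of wild type mice that had been grown for 5 days in full medium, a condition that all samples share. There is no treatment and no second genotype, and the 2 samples, biological replicates 1 and 2, are the replicates of every value (n = 2). According to the study's methods, cells of several aortae were pooled in each preparation. In such cultures, contractile VSMCs lose their contractile proteins and turn into modulated cells, so that cells of several states lie side by side. Each library was made by single-cell RNA sequencing with the 10x Genomics 3′ method, in which a unique molecular identifier (UMI) marks each captured mRNA molecule.

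Barcodes counted as cells when they held 300 or more genes and 3000 or more UMIs of which less than 20% were mitochondrial, and 4866 of replicate 1 and 6824 of replicate 2 did. The total counts were 127949633 and 132561822 UMIs, and the median cell held 22234.5 and 16310 UMIs. Endothelial cells (ECs) had at least 2 UMIs in at least 2 of Pecam1, Cdh5, Cldn5 and Gja4 (102 and 141 cells) and were taken out of the other classes. Of the rest, Myh11 high cells had at least 5 UMIs of Myh11, the smooth muscle myosin heavy chain (473 and 879 cells), and Myh11 low cells had at most 1 (3954 and 5362 cells). Il1rn positive cells had at least 1 UMI of Il1rn, the interleukin-1 receptor antagonist (1026 and 318 cells), and cycling cells had at least 6 UMIs of Mki67, Top2a and Cenpf together (1450 and 1651 cells). The last 2 classes overlap with the Myh11 classes. Of the markers that no class rule used, the contractile and endothelial lists fitted the labels. The 10 contractile genes summed to 23672 and 23634 CPM (the counts of a gene scaled to a common total of counts) in Myh11 high cells. They summed to 6351 and 3437 CPM in Myh11 low cells and to 2931 and 2022 CPM in ECs. The 10 endothelial genes summed to 3067.5 and 3288 CPM in ECs and to at most 47.8 CPM elsewhere. The 7 modulated genes were mixed, with sums of 2777 and 2871 CPM in Myh11 high and 3136 and 4328 CPM in Myh11 low cells. In both libraries Lum, Pdgfra, S100a4 and Sox9 were higher in Myh11 low cells, and Spp1 and Lgals3 in Myh11 high cells. Tnfrsf11b was split between the libraries. The 8 fibroblast genes, Lum and Pdgfra among them, summed to 758 and 246 CPM in Myh11 high and to 1219.5 and 1303 CPM in Myh11 low cells. Whether the Myh11 low class holds cells other than smooth muscle cells was not tested. The libraries shared 9 kept barcodes. Free RNA was 9.55% and 5.79% of the UMIs of a cell by a rough estimate from Tie1, Vwf and Emcn. These endothelial genes were found in at most 0.945% of the cells that were not ECs. Of the 10 endothelial genes they gave the lowest figures. The others gave 27.7 to 131% in replicate 1 and 24.3 to 164% in replicate 2. Whether these higher figures also count transcripts made by the cells was not tested. Some figures rest on few UMIs in free RNA, such as 2 and 6 for Erg, and 6 and 9 for Tie1 among the 3 used. The estimate was made outside ECs and applied to ECs as well.

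Heterotrimeric G proteins carry the signals of vasoconstrictor receptors such as those for angiotensin and endothelin into VSMCs. An RGS protein speeds up the hydrolysis of GTP on the α subunit and so shortens the signal. Rgs2, Rgs3, Rgs4, Rgs5 and Rgs16 belong to the R4 family, small proteins that act on the Gi and Gq classes, and Rgs5 is widely used as a pericyte and arterial VSMC gene. Rgs10 is of the R12 family and Rgs17 of the RZ family. Rgs7bp is not an RGS protein but a binding protein that anchors the R7 family at the membrane. Rgcc, the regulator of cell cycle also called RGC-32, has no RGS domain and shares only the letters of its name.

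The 250 bases upstream of the annotated start sites are shown for 5 members, because their levels moved together or apart in the comparisons that follow. Rgs5 and Rgs4 are neighbours on chromosome 1, with 45663 bp between their 3′ ends, and were found together in more cells than expected. Rgs4 was higher in Myh11 high than in Myh11 low cells in both libraries, while Rgs5 was split between them. This contrast of the 2 genes was not tested. Rgs16 and Rgcc were higher in Il1rn positive cells within each library, and Rgs2 differed most between the libraries in Myh11 low cells. The sequences are from RefSeq (build GRCm38.p6), run 5′ to 3′ on the strand of the gene and end at the base before the start site. Capitals mark the motifs searched on both strands, which were TATAAA, the GC box GGGCGG, the AP-1 site TGANTCA, the core TGACGT of the cyclic AMP response element, the cell cycle homology element TTTGAA, the CArG box and the NF-kB site.
Rgs5 (chr1:169655251-169655500, plus strand): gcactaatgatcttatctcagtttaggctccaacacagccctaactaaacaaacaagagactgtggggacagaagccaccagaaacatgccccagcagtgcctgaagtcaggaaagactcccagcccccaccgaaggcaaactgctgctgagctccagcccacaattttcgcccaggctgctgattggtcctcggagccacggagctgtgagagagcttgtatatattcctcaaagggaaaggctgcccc
Rgs4 (chr1:169747643-169747892, minus strand): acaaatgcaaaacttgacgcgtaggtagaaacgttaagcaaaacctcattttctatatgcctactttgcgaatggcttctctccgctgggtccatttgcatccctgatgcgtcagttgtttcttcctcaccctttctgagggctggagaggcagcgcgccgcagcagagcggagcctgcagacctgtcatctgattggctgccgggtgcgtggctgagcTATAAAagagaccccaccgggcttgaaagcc
Rgs16 (chr1:153740103-153740352, plus strand): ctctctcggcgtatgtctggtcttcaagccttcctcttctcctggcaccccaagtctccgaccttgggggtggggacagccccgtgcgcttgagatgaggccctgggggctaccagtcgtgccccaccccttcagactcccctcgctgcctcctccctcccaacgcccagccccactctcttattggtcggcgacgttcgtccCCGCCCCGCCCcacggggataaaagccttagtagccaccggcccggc
Rgcc (chr14:79301636-79301885, minus strand): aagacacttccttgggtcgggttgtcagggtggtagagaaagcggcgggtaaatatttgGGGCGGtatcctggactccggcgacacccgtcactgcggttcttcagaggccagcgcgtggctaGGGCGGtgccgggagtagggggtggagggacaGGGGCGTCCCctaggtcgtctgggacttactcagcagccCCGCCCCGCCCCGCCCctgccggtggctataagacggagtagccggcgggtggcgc
Rgs2 (chr1:144004150-144004399, minus strand): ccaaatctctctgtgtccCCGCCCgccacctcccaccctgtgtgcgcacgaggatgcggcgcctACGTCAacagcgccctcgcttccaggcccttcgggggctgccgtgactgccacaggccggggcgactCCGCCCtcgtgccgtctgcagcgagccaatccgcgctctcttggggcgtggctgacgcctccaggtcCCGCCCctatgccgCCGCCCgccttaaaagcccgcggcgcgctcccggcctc

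In the Rgs5 window none of these motifs was found. Rgs4 held a TATAAA from -31 to -26, counted from the start site, which 12.4% of all 32851 promoters of the table held somewhere in the same window. GC boxes, found in 32.7% of all promoters, numbered 4 in Rgs2, 2 overlapping ones in Rgs16 and 5 in Rgcc, of which the 3 nearest to the start overlapped. Rgs2 also held a core of the cyclic AMP response element (6.47% of all promoters) and Rgcc an NF-kB site from -95 to -86, matched on both strands (7.25% of all promoters). AP-1 sites, cell cycle homology elements and CArG boxes, at 6.75%, 16.0% and 1.47% of all promoters, were not found in these 5 windows. The windows of Rgs2, Rgs16 and Rgcc were 72.4%, 66.4% and 66.8% G and C, and both the Rgs4 and the Rgs5 window 53.6%, against a median of 52.4% over all promoters. These matches describe the letters only. In the GENCODE M21 annotation of GRCm38, the genes span chr1:169655501-169695813 (Rgs5), chr1:169741477-169747642 (Rgs4), chr1:153740349-153745468 (Rgs16), chr14:79288756-79301645 (Rgcc) and chr1:143999338-144004161 (Rgs2), so that 4 of the 9 members lie on chromosome 1.

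Some members differed strongly between the 2 cultures. Rgs2, a regulator that prefers Gq, was at 38.3 CPM in the Myh11 low cells of replicate 1 and at 9.52 CPM in those of replicate 2, a ratio of 4.02. The ratio was 6.49 in Myh11 high cells (21.4 and 3.29 CPM) and 1.93 in ECs (41.8 and 21.7 CPM), so that replicate 1 was higher in each class. Rgs16, a regulator induced by stimulation in many cells, was also higher in replicate 1 in each of the 5 classes, with 14.6 and 4.24 CPM in Myh11 low cells. Rgs3, Rgs10, Rgs17 and Rgcc had the same order in each of the 5 classes. In Myh11 low cells Rgs2 and Rgs16 were the 2 of 9 members that lay at least 2-fold apart, where 4.26% of the 10971 genes at 2 CPM or more did. In Myh11 high cells Rgcc (15.8 and 2.93 CPM) and Rgs17 (8.37 and 2.47 CPM) lay far apart as well, with ratios of 5.37 and 3.39. The share of all genes was not computed there. With 1 culture on each side, this is a difference between libraries, and its cause was not tested. Rgs7bp was the member with the opposite order, lower in replicate 1 in each of the 5 classes.

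**Figure D1:**
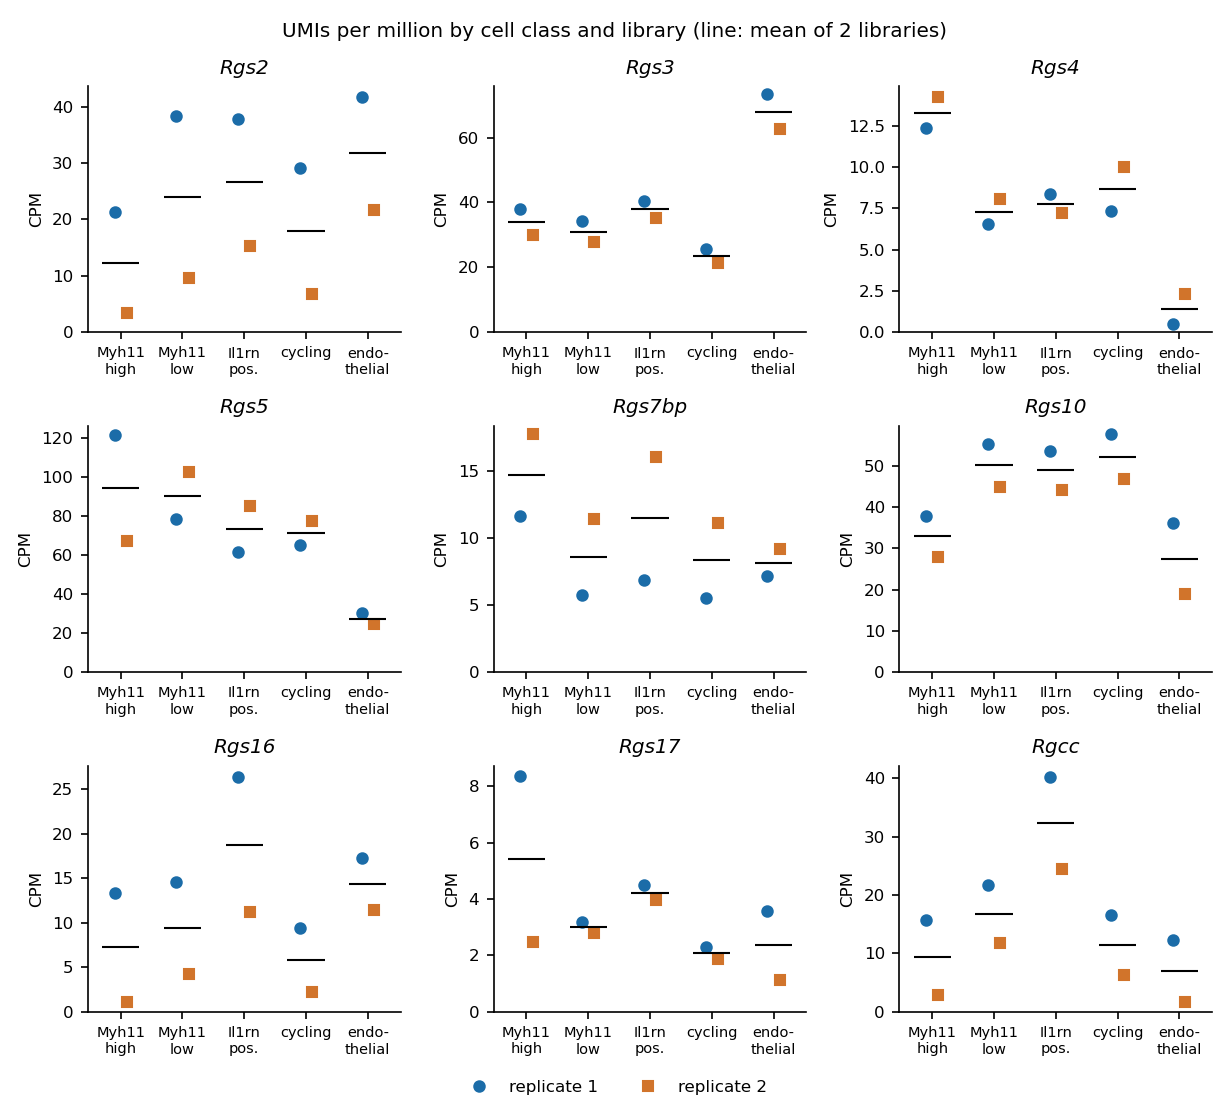
Level of each of the 9 genes in CPM (vertical axes, starting at 0, with a scale of their own) by cell class, with circles for replicate 1, squares for replicate 2 and a line at their mean. Rgs4 and Rgs5 are lowest in ECs, Rgs3 is highest there, and Rgcc is highest in Il1rn positive cells. The libraries lie far apart for Rgs2 and Rgs16, and in Myh11 high cells also for Rgcc and Rgs17.

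Levels are given as CPM of the summed counts of a class, and they are compared between classes and not between genes, since 3′ counts do not show the level of one gene against another per length. Among the R4 genes, Rgs5 had 121.5 and 67.4 CPM in Myh11 high cells, 78.4 and 102.7 CPM in Myh11 low cells, 61.4 and 85.1 CPM in Il1rn positive cells, 65.4 and 77.7 CPM in cycling cells, and 30.1 and 24.6 CPM in ECs. The ECs were below all other classes in both libraries, and the other 4 classes overlapped. Rgs4 had 12.4 and 14.3 CPM in Myh11 high cells, 7.33 and 10.0 CPM in cycling cells, 8.36 and 7.21 CPM in Il1rn positive cells, 6.58 and 8.05 CPM in Myh11 low cells, and 0.510 and 2.28 CPM in ECs. Myh11 high cells were thus the highest class and ECs the lowest in both libraries. Cycling cells were above Myh11 low cells in both, and the place of Il1rn positive cells differed between the libraries.

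Rgs3, a larger R4 protein, had 73.4 and 62.8 CPM in ECs, 40.4 and 35.3 CPM in Il1rn positive cells, 38.1 and 29.9 CPM in Myh11 high cells, 34.2 and 27.8 CPM in Myh11 low cells, and 25.7 and 21.3 CPM in cycling cells. The EC values were above all others, and each library kept cycling cells last. Rgs2 had 37.8 and 15.3 CPM in Il1rn positive cells and 29.2 and 6.78 CPM in cycling cells, and its values overlapped between neighbouring classes because the libraries lay far apart. Within each library, ECs were highest for Rgs2, cycling cells second lowest and Myh11 high cells lowest. Rgs16 overlapped between neighbouring classes as well, with 26.4 and 11.2 CPM in Il1rn positive cells, 17.3 and 11.4 CPM in ECs, 13.4 and 1.13 CPM in Myh11 high cells, and 9.41 and 2.21 CPM in cycling cells.

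Outside the R4 family, Rgs10 had 57.9 and 46.9 CPM in cycling cells, 55.5 and 45.0 CPM in Myh11 low cells, 53.8 and 44.3 CPM in Il1rn positive cells, 37.8 and 28.0 CPM in Myh11 high cells, and 36.2 and 18.8 CPM in ECs. The first 3 classes did not overlap with the last 2. Rgs17 had the fewest UMIs of the 9 genes, with 8.37 and 2.47 CPM in Myh11 high cells and means between 2.07 and 4.22 CPM in the other classes, and its EC values rest on 7 and 2 UMIs, where counting error is large. Rgs7bp had 11.7 and 17.8 CPM in Myh11 high cells, 6.87 and 16.0 CPM in Il1rn positive cells, 5.74 and 11.4 CPM in Myh11 low cells, 5.54 and 11.1 CPM in cycling cells, and 7.13 and 9.14 CPM in ECs. Rgcc had 40.2 and 24.5 CPM in Il1rn positive cells, 21.8 and 11.7 CPM in Myh11 low cells, 16.5 and 6.30 CPM in cycling cells, 15.8 and 2.93 CPM in Myh11 high cells, and 12.2 and 1.71 CPM in ECs. Both libraries had the 5 classes in this same order, but Rgcc was found in only 6.86% and 1.42% of ECs, so their last place rests on few cells. Both Rgcc values in Il1rn positive cells lay above both values in Myh11 low cells, and further down the values of neighbouring classes overlapped.

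The comparison of Myh11 high with Myh11 low cells asks how the regulators follow the contractile state. Tests were made with edgeR's quasi-likelihood test on the counts summed per library and class, with Benjamini-Hochberg adjustment over all genes tested. None of the 9 members passed an adjusted p of 0.05, where edgeR called 2.28% of all 13226 genes. An unadjusted p under 0.05 was found for 1 member and 2201 genes, and DESeq2 called 1 member and 1129 genes. The sums of a library come from the same culture, and in the fit that takes the library as a block 3 members were called, with 16.3% of all genes called. Rgs4 was higher in Myh11 high cells by 0.93 ± 0.29 on the log2 scale (± SE throughout), with an adjusted p of 0.185 without and 0.0209 with the block. Rgs7bp was higher by 0.88 ± 0.16 with the block (adjusted p = 0.0177, and 0.332 without it). Rgs10 was lower, with a log2 fold change of -0.56 ± 0.13 with the block (adjusted p = 0.0376, and 0.436 without it). All 3 went the same way in both libraries.

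Of the other members, Rgs2 and Rgcc had lower values in Myh11 high cells in both libraries, with log2 fold changes of -1.03 ± 0.30 and -1.10 ± 0.35 with the block and adjusted p values of 0.0663 and 0.0880, which missed the threshold. Rgs5 did not differ detectably (log2 fold change 0.12 ± 0.30, adjusted p = 0.902), and its 2 libraries went in opposite directions, 0.63 higher in replicate 1 and -0.61 in replicate 2. Rgs17 was also split, with differences of 1.40 and -0.18. The median log2 fold change of the 9 members was 0.12, and that of all genes -0.02.

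The same cells were also divided into 6 steps by their number of Myh11 UMIs. Rgs4 went from 6.49 CPM in cells with no Myh11 UMI to 17.7 CPM in cells with 20 or more in replicate 1, and from 7.96 to 21.1 CPM in replicate 2. Rgs10 was lower at each further step in both libraries, from 55.6 to 33.3 CPM and from 45.2 to 23.8 CPM. Rgs7bp went from 5.41 to 14.0 CPM and from 11.2 to 22.4 CPM with small reversals on the way. Rgs2 went from 38.1 to 13.8 CPM and from 9.62 to 1.70 CPM, and replicate 1 stayed above replicate 2 at every step. Rgs5 had no common course, with a peak of 216 CPM at 10 to 19 UMIs in replicate 1, where replicate 2 had 64.7 CPM. These steps share cells with the classes tested above and carry no test of their own.

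**Figure D2:**
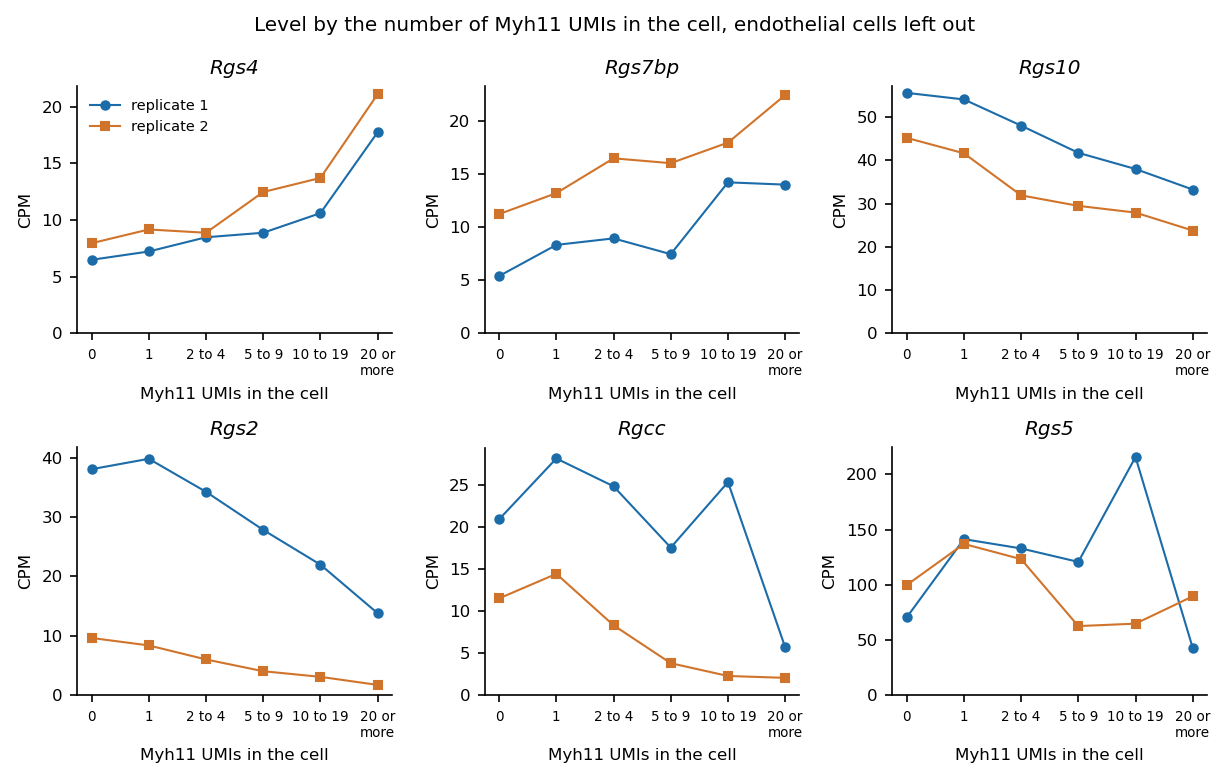
Level in CPM (vertical axes, starting at 0) of 6 of the genes in cells grouped by their number of Myh11 UMIs (horizontal axes), with a line for each library and ECs left out. Rgs4 and Rgs7bp are higher at 20 or more Myh11 UMIs than at 0, Rgs10 and Rgs2 are lower, and the Rgs5 lines cross.

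Without any block, 3 members were called in ECs, and the same 3 against both Myh11 classes. Against Myh11 high cells 3 of 9 members passed (17.5% of all genes did), and against Myh11 low cells also 3 of 9 (16.3% of all genes). Rgs4 was 10.9-fold lower in ECs than in Myh11 high cells (log2 fold change -3.45 ± 0.48, adjusted p = 0.00698) and 5.74-fold lower than in Myh11 low cells (-2.52 ± 0.50, adjusted p = 0.0233). In replicates 1 and 2 the difference was -4.60 and -2.64 against Myh11 high and -3.69 and -1.82 against Myh11 low cells. With 0.510 and 2.28 CPM in ECs, these values rest on a few UMIs. The size of the Rgs4 fold and its gap between the libraries are therefore uncertain. Rgs5 was 3.83-fold lower than in Myh11 high cells (-1.94 ± 0.34, adjusted p = 0.0145) and 3.52-fold lower than in Myh11 low cells (-1.81 ± 0.34, adjusted p = 0.0191). Rgs3 was 2.06-fold higher than in Myh11 low cells (1.04 ± 0.20, adjusted p = 0.0229) and 1.81-fold higher than in Myh11 high cells (0.85 ± 0.21, adjusted p = 0.0395). When Myh11 high cells and ECs were matched on their UMI count, the latter value was 0.64 with an adjusted p of 0.198. This matching kept 81 of 102 and 106 of 141 ECs and was a separate fit without Myh11 low cells. Without a filter on low counts the adjusted p of Rgs3 against Myh11 high cells was 0.105. The filter also decided the 3 calls against Myh11 low cells, which were lost without it, with adjusted p values between 0.0518 and 0.0689.

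With the library as a block, 5 members were called against Myh11 high cells (30.1% of all genes) and 4 against Myh11 low cells (31.2% of all genes). Added to the first were Rgs2, higher in ECs by 1.47 ± 0.38 (adjusted p = 0.0305, and 0.468 without the block), and Rgs7bp, lower at -0.995 ± 0.249 (adjusted p = 0.0271, and 0.180 without). Added to the second was Rgs10, lower in ECs at -0.98 ± 0.17 (adjusted p = 0.00696, and 0.106 without). The EC values of all 9 members went the same way in both libraries against Myh11 high cells. The median of the members was -0.52 against Myh11 high cells and -0.41 against Myh11 low cells, where that of all genes was -0.03 in both comparisons.

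The counts behind the EC values were small. Rgs4 was found in 1 of 102 and 4 of 141 ECs, 0.980% and 2.84%, where free RNA alone would give 0.900% and 0.702% by the rough estimate. Its share was 17.1% and 19% in Myh11 high cells and 9.61% and 8.77% in Myh11 low cells. Rgs5 was found in 9 of 102 ECs (8.82%, exact 95% interval 4.11 to 16.1%) and in 6 of 141 (4.26%, 1.58 to 9.03%), where free RNA alone would give 10.5% and 5.27%. The share of ECs with Rgs5 was thus at the level of free RNA by this estimate. Their CPM was above that level, at 30.1 and 24.6 CPM. Free RNA held 62.6 and 76.2 CPM of Rgs5 and made up 9.55% and 5.79% of a cell's UMIs. The CPM in ECs is an upper figure for their own Rgs5. Of the ECs with Rgs5, 3 and 1 cells held 10 or more UMIs of it. Among all ECs, 4 and 3 cells held at least 5 UMIs of Myh11. Where the Rgs5 UMIs of ECs came from was not tested. Rgs3 was found in 66.7% and 51.8% of ECs, and after each cell was thinned to 3000 UMIs in 23.8% and 19.6% of them, against 11.1% and 8.63% of Myh11 high cells. These intervals cover counting error only.

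**Figure D3:**
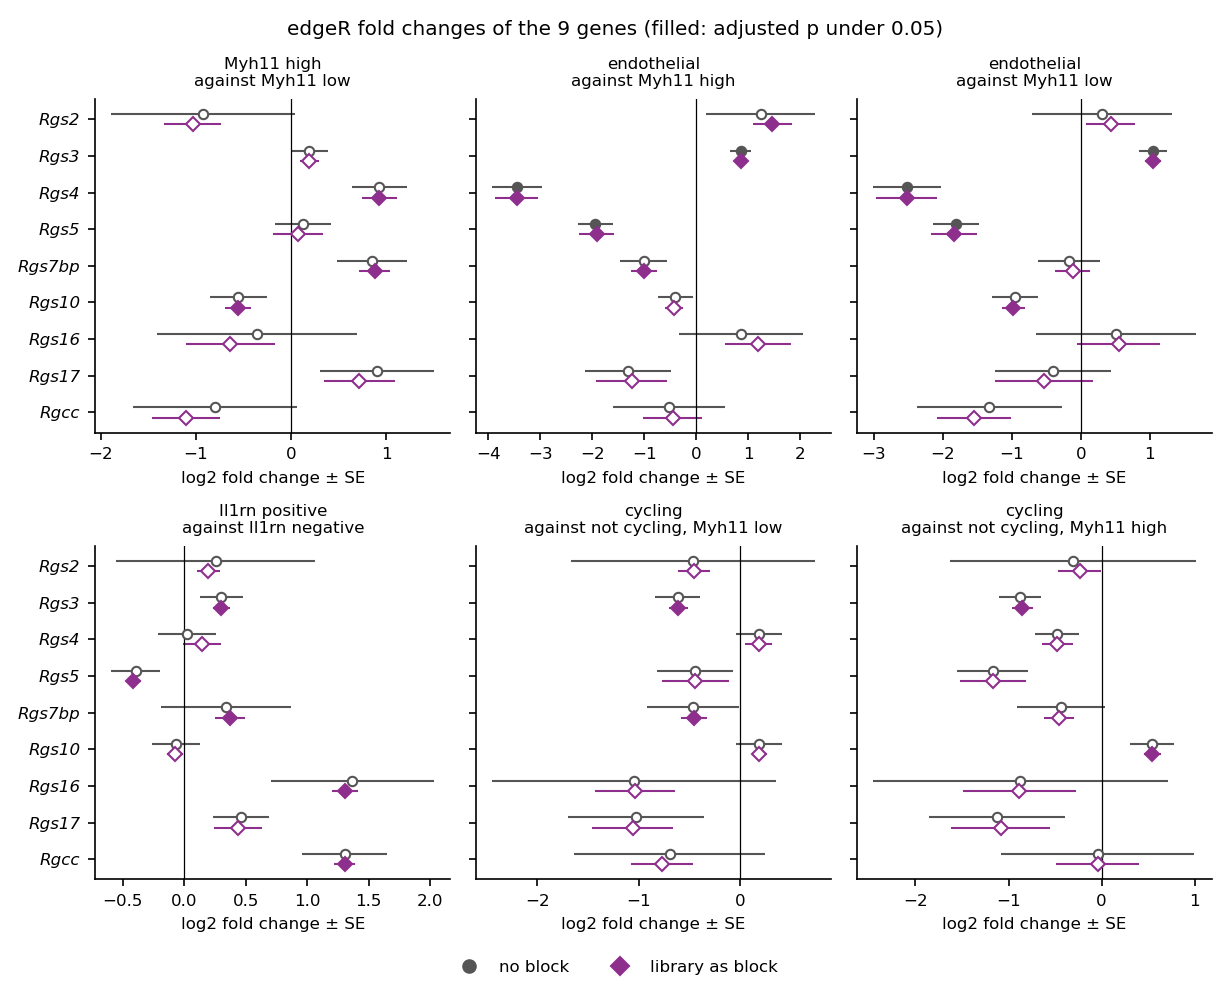
Log2 fold change ± SE of the 9 genes in 6 comparisons (horizontal axes, with a line at 0), from edgeR without a block (circles) and with the library as a block (diamonds), filled where the adjusted p is under 0.05. The filled circles are Rgs3, Rgs4 and Rgs5 in ECs. The block adds 3 members for Myh11 high cells (16.3% of all genes called) and 5 for Il1rn positive cells (14.0%). In ECs it adds Rgs2 and Rgs7bp against Myh11 high (30.1%) and Rgs10 against Myh11 low cells (31.2%). It adds 2 members in each cycling comparison (22.1% in Myh11 low and 16.8% in Myh11 high cells).

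The Il1rn positive cells were compared with Il1rn negative cells within the Myh11 low class (913 and 300 against 3041 and 5062 cells), where the sets do not overlap. Rgcc had 42.0 and 24.6 CPM in Il1rn positive and 15.5 and 11 CPM in Il1rn negative cells. Rgs16 had 26.6 and 11.5 CPM against 10.9 and 3.82 CPM. Both Rgcc values of the positive cells were above both of the negative cells, and for both genes the positive cells were higher within each library.

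Without the block, edgeR called 0 of 9 members and 0% of all 14052 genes, although 1 member, Rgcc, and 634 genes had an unadjusted p under 0.05, and DESeq2 called 0 members and 86 genes. With the block 5 members were called, and 14.0% of all genes. That fit of 4 sums leaves few residual degrees of freedom, so its p-values rest mostly on the variance shared over all genes. Rgcc was 2.47-fold higher (log2 fold change 1.31 ± 0.086, adjusted p = 7.1e-11, and 0.878 without the block) and Rgs16 2.48-fold higher (1.31 ± 0.10, adjusted p = 2.45e-09, and 1.00 without). Smaller differences were those of Rgs3 (0.30 ± 0.071, adjusted p = 0.0045) and Rgs7bp (0.37 ± 0.12, adjusted p = 0.0483). Rgs5 was lower (-0.42 ± 0.060, adjusted p = 2.06e-05), with 61.1 and 87.8 CPM in Il1rn positive and 83.7 and 103.5 CPM in Il1rn negative cells. The median of the members was 0.30 and that of all genes -0.00.

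The share of cells with a UMI showed the same order. Rgcc was found in 39.8% and 21% of Il1rn positive and in 16.0% and 10.1% of Il1rn negative cells, and after thinning in 11.6% and 7.15% against 4.24% and 3.25%. Rgs16 was found in 25.7% and 10.0% against 9.73% and 3.42%, and after thinning in 7.004% and 3.494% against 2.91% and 1.24%. Macrophage markers moved with the class: the 8 genes listed summed to 85.7 and 54.3 CPM in Il1rn positive and to 11.5 and 10.7 CPM in Il1rn negative cells. Ptprc, the pan-leukocyte gene CD45, was at 1.55 and 0.782 CPM against 0.0685 and 0.0338 CPM. When all cells with at least 2 UMIs of these markers were left out (20 and 5 positive and 59 and 51 negative cells), the block fit gave 1.31 for Rgs16 and 1.34 for Rgcc. It called 4 members and 2163 of all genes, against 1968 genes with all cells. Rgs7bp then missed the threshold, with a value close to that before (0.34, adjusted p = 0.0534).

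Cycling cells were compared with the others within each Myh11 class. In Myh11 low cells edgeR called 0 of 9 members without the block, where 5.66% of all 13358 genes were called. An unadjusted p under 0.05 was found for 1 member and 2095 genes, and DESeq2 called 0 members and 1064 genes. In Myh11 high cells edgeR called 0 of 9 members, with 5.02% of all genes. There 2 members and 2252 genes had an unadjusted p under 0.05, and DESeq2 called 2 members and 947 genes. With the block 2 members were called in each class, where 22.1% and 16.8% of all genes were called.

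Rgs3 was lower in cycling cells of both classes. It had 25.3 and 21.1 CPM in cycling against 39.5 and 30.4 CPM in other Myh11 low cells (-0.61 ± 0.094, adjusted p = 0.00507 with the block and 0.231 without), and 24.8 and 23.0 CPM against 47.4 and 34.6 CPM in Myh11 high cells (-0.85 ± 0.11, adjusted p = 0.00322 and 0.102). DESeq2 called the latter as well (adjusted p = 0.0273). Rgs10 was higher in cycling Myh11 high cells, with 47.3 and 36.2 CPM against 31.1 and 22.6 CPM (0.55 ± 0.087, adjusted p = 0.00769 with the block and 0.326 without). Rgs7bp was lower in cycling Myh11 low cells, with 4.82 and 8.93 CPM against 6.29 and 12.4 CPM (-0.45 ± 0.13, adjusted p = 0.0490 with the block and 0.762 without).

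Rgs5 had 72.1 and 42.4 CPM in cycling and 156.2 and 84.0 CPM in other Myh11 high cells, a log2 fold change of -1.17 ± 0.38 that missed the threshold in edgeR (adjusted p = 0.190, and 0.0718 with the block) and passed it in DESeq2 (adjusted p = 0.0452). Rgcc, named for the cell cycle, had log2 fold changes of -0.69 ± 0.94 and -0.04 ± 1.04 in Myh11 low and Myh11 high cells (edgeR adjusted p = 0.862 and 0.998). With the block these were -0.77 ± 0.30 and -0.04 ± 0.45 (adjusted p = 0.120 and 0.969), which missed the threshold. Both libraries had less Rgcc in cycling Myh11 low cells (-0.57 and -0.86), and in Myh11 high cells they were split (0.11 and -0.19). For none of the 9 members did edgeR call a difference of the cycling effect between the classes, with or without the block, and 0% of all genes were called. Without the block 0 members and 102 genes had an unadjusted p under 0.05 for it, and with the block 574 genes did, among them Rgs4 and Rgs10. DESeq2 was not run on this difference. The calls of Rgs10 and Rgs7bp in 1 class only are therefore not shown to differ between the classes.

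Many Rgs5 UMIs were found in few cells. Cells with 10 or more UMIs of Rgs5 were 5.24% and 4.47% of all cells, 255 and 305 cells, and held 57.8% and 53.5% of all Rgs5 UMIs. The highest cell had 316 and 162 UMIs, while the median cell with Rgs5 had 2 in each library. The other members reached 10 UMIs in at most 1.15% of cells, and Rgs10, the member found in the most cells of each library (61.3% and 45.9%), had a highest cell of 17 and 10 UMIs. A fixed number of UMIs favours genes with many counts: the 5% of cells with the most UMIs of a gene held 56.7% and 56.2% of those of Rgs5, and 69.5% and 68.1% of those of Rgs4, which was found in fewer cells. The cells rich in Rgs5 were found in both states, with shares of 6.98% and 3.98% in Myh11 high and 4.70% and 4.61% in Myh11 low cells.

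Within Myh11 low cells, those with 10 or more Rgs5 UMIs (186 and 247) were set beside those with none (2427 and 3357) as a description without a test. Rgs4, the neighbour of Rgs5, was at 18.4 and 30.5 CPM against 3.67 and 3.98 CPM, ratios of 5.03 and 7.65. Rgcc had ratios of 0.480 and 0.474, Rgs16 of 0.526 and 0.265, and Rgs2 of 0.728 and 0.469. Rgs4 was thus far above its level in cells without Rgs5 in both libraries, and the 3 others below it. Notch3, a receptor of mural cells, had 43.0 and 28.1 CPM against 15.1 and 8.46 CPM, and Cox4i2, a mitochondrial subunit used as a pericyte gene, had ratios of 1.72 and 2.32. The summed level of the 7 pericyte genes was 1.28 and 1.51 times as high in the cells rich in Rgs5, less than the ratios of Notch3 and of Cox4i2. Higd1b, a defining pericyte gene, was near 0 in Myh11 low cells as a whole (0.0209 and 0.0107 CPM).

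In Myh11 high cells the Rgs4 ratios were smaller, 2.17 and 1.94, over 33 and 35 cells with 10 or more Rgs5 UMIs and 328 and 613 with none. Notch3 had ratios of 5.49 and 8.26, Cox4i2 of 4.89 and 5.45, and Pdgfrb, the receptor of platelet-derived growth factor B on mural cells, of 2.18 and 2.31. Kcnj8 had ratios of 1.59 and 1.45, Abcc9 of 1.49 and 0.808, and Cspg4 of 0.784 and 0.884, so that not all pericyte genes went with Rgs5, and the sum of the 7 had ratios of 1.73 and 1.48. The fibroblast genes also went with Rgs5 here, at 1192.9 and 675.6 CPM against 674.9 and 185.8 CPM in sum, as did the Schwann cell genes at 20.1 and 17.6 CPM against 9.62 and 3.98 CPM, while the contractile genes were at 0.750 and 0.915 times their level in cells without Rgs5. In Myh11 low cells the fibroblast sums had ratios of 0.859 and 1.01. The part of these marker differences in the Rgs4 values was not tested.

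**Figure D4:**
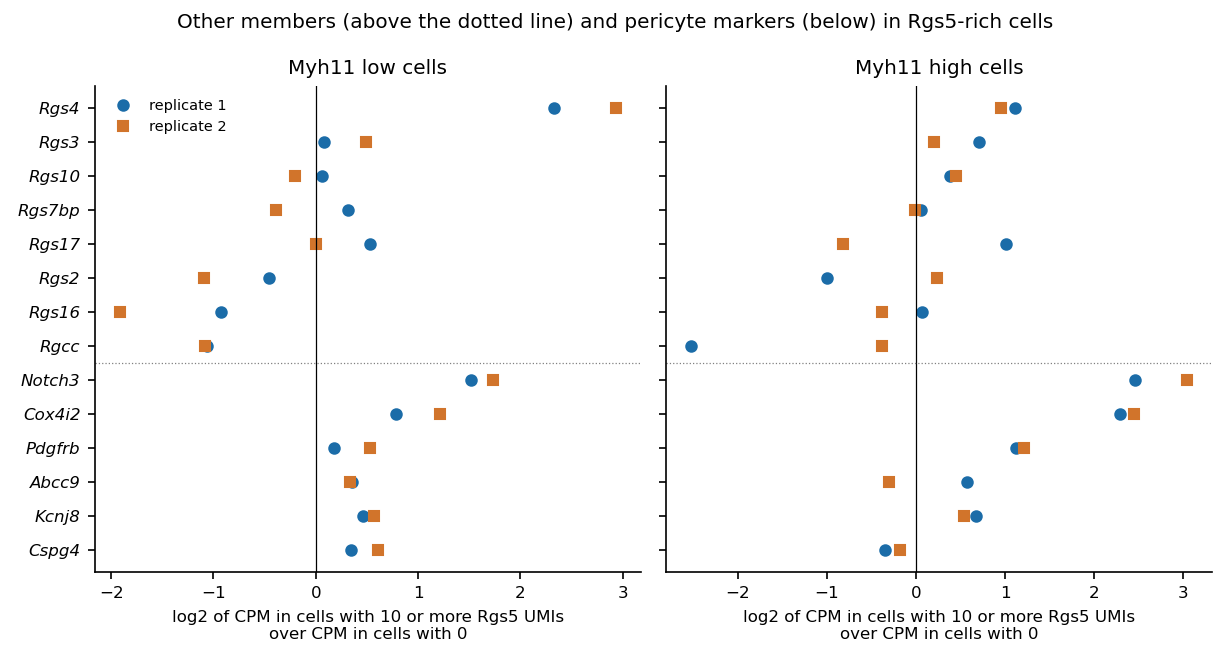
Log2 ratio of the CPM in cells with 10 or more Rgs5 UMIs to the CPM in cells with none (horizontal axes, with a line at 0) for the other 8 genes and for 6 pericyte markers, in Myh11 low (left) and Myh11 high cells (right), circles for replicate 1 and squares for replicate 2. In Myh11 low cells Rgs4 lies farthest to the right in both libraries, with ratios of 5.03 and 7.65, and Rgs16, Rgcc and Rgs2 lie to the left.

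Whether members were found in the same cells was counted for all 36 pairs in Myh11 low cells that were not cycling. The expected number of cells with both genes was summed over 10 bins of cells of like UMI count, so that deep cells do not raise it. Rgs16 and Rgcc were found together in 191 and 68 cells, where 95.01 and 20.23 were expected, ratios of 2.01 and 3.36. Rgs4 and Rgs5 were together in 152 and 215 cells, where 91.0 and 126 were expected, ratios of 1.67 and 1.71. These were the 2 pairs above 1.5 in both libraries. Rgs5 and Rgs16 met less often than expected, in 121 and 49 cells, with ratios of 0.762 and 0.769. The pairs share cells and libraries, and these ratios are a description without a p-value.

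**Figure D5:**
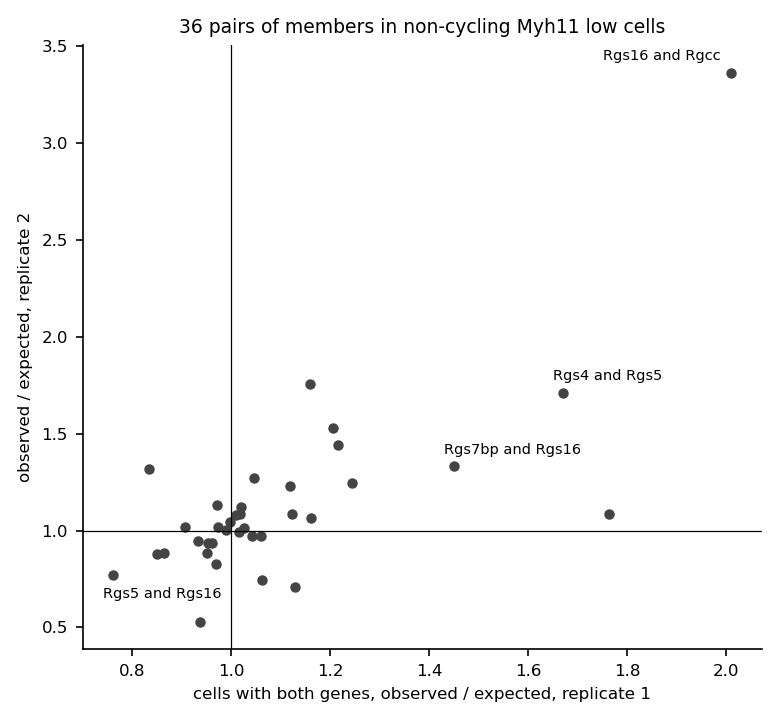
Ratio of observed to expected cells with both genes for the 36 pairs of members in Myh11 low cells that were not cycling, replicate 1 on the horizontal and replicate 2 on the vertical axis, with lines at 1. The pair of Rgs16 and Rgcc lies at 2.01 and 3.36 and that of Rgs4 and Rgs5 at 1.67 and 1.71, while most pairs lie near 1.

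Over 12 sums of counts that share no cell, 6 in each library, the level of every one of 9251 genes was correlated with that of the members on the log2 scale, as a description. These sums share their library and depth, so that a gene that differs between the libraries correlates with any other that does. Rgs2 was most like Nr4a2, an immediate early nuclear receptor (Pearson r = 0.978), then Ubald1 and Bach1 (0.976 and 0.973). Rgs16 was most like Gabbr1, Stx5a and Maff (0.965, 0.965 and 0.963), and Rgcc like Igfbp4, Fgf7 and Lgi2 (0.968, 0.964 and 0.964). Rgs5 was most like Cnn3, a calponin (0.972), then Aebp1 and Fkbp11 (0.913 and 0.907), and Rgs4 like Asb1, Atl3 and Sgcb (0.968, 0.955 and 0.952). The nearest genes of Rgs3 were Jmy, Slc44a2 and Zzef1 (0.948, 0.939 and 0.937), those of Rgs7bp Trappc6b, Plin4 and Nfu1 (0.943, 0.941 and 0.937), and those of Rgs10 Nt5dc2, Ankrd55 and Nav3 (0.986, 0.970 and 0.945). Rgs17 was too low for this comparison. Among the members, Rgs2 and Rgs16 were most alike (0.932) and Rgs2 and Rgs7bp least (-0.751).

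Of the 21 other genes with an RGS domain or name that were listed, all were in the table, 13 stayed below 1 CPM in every class and 5 reached 10 CPM in a class, namely Rgs12, Rgs19, Axin1, Snx13 and Snx14. At most 10 of them could be tested in a comparison, and without the block 1 call was made among them in all comparisons. Rgs12 was higher in cycling Myh11 high cells (1.10 ± 0.16, adjusted p = 0.0115), and had 17.0 and 17.1 CPM in all cycling cells. With the block Rgs12 was also called in cycling Myh11 low cells (0.61 ± 0.10, adjusted p = 0.0073, and 0.0711 without). Rgs19, which acts on Gi, was called with the block as higher in ECs than in Myh11 high cells (0.51 ± 0.12, adjusted p = 0.0229, and 0.0733 without) and than in Myh11 low cells (0.40 ± 0.12, adjusted p = 0.0460, and 0.132 without). It was lower in cycling Myh11 low cells (-0.25 ± 0.069, adjusted p = 0.0453, and 0.484 without). The block also added Rgs7, one of the partners of Rgs7bp, which like it was higher in Myh11 high cells (3.06 ± 0.44, adjusted p = 0.0121, with 2.54 and 2.88 CPM against 0.188 and 0.522 CPM). It had no UMI in ECs, which allows up to 1.53 and 1.71 CPM. A further call with the block was Rgs1, a regulator of leukocytes, in Il1rn positive cells (3.24 ± 0.49, adjusted p = 3.87e-05), beside the macrophage markers given above. Rgs7 and Rgs1 did not reach 10 CPM and were named after their values were seen.

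The receptors, G proteins and effectors around the members were followed as a list of 80 genes. For Myh11 high against Myh11 low cells 67 were tested, of which 2 were higher and 0 lower (with the block 7 and 6). These were Adcy5, an adenylyl cyclase that Gi inhibits (3.23 ± 0.41, adjusted p = 0.0241, with 26.5 and 42.5 CPM against 4.43 and 3.17 CPM), and Gnai1, the Gi α subunit 1 (1.49 ± 0.14, adjusted p = 0.00895, with 45.4 and 53.8 CPM against 17.9 and 18.9 CPM). The list and all genes had the same median log2 fold change of -0.02. Of all genes 2.28% were called in this comparison, and 16.3% with the block.

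In ECs 8 of 67 genes of the list were higher and 10 lower than in Myh11 high cells (with the block 13 and 17). Against Myh11 low cells 12 were higher and 9 lower (with the block 14 and 19). Of all genes 17.5% were called against Myh11 high cells (30.1% with the block) and 16.3% against Myh11 low cells (31.2%). Among the highest were the endothelin receptor Ednrb, with 208 and 343 CPM against 0.149 and 0.103 CPM in Myh11 high cells, the sphingosine phosphate receptor S1pr1, with 251 and 307 CPM against 4.18 and 1.18 CPM, and the adenylyl cyclase Adcy4 (5.27 ± 0.35, adjusted p = 0.000793). Lower in ECs than in Myh11 high cells were Adcy5 (-3.25 ± 0.53, adjusted p = 0.0116) and Gnai1 (-2.59 ± 0.18, adjusted p = 0.000822), and lower than in Myh11 low cells the receptors Ednra (-2.74 ± 0.55, adjusted p = 0.0242) and S1pr2 (-1.84 ± 0.27, adjusted p = 0.00829). Gng7, a γ subunit, was called as lower in both comparisons (adjusted p = 0.0423 and 0.0331) but had 0 UMIs in ECs, which allows up to 1.53 and 1.71 CPM, and 1.87 and 1.34 CPM in Myh11 high and 2.42 and 1.89 CPM in Myh11 low cells, so that no fold is given.

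In Il1rn positive cells 72 genes of the list were tested and 0 were called by edgeR without the block (with it 8 were higher and 8 lower). Of all genes 0% were called without the block and 14.0% with it. In cycling Myh11 low cells 2 of 69 were higher, namely Gpsm2, a Gi-binding protein of the mitotic spindle (1.61 ± 0.20, adjusted p = 0.00605), and the receptor kinase Grk2 (0.49 ± 0.10, adjusted p = 0.0485). The 2 that were lower were the oxytocin receptor Oxtr (-1.42 ± 0.25, adjusted p = 0.0222) and Gnb5, the β subunit that pairs with the R7 family (-0.86 ± 0.17, adjusted p = 0.0351). In cycling Myh11 high cells Gpsm2 was the 1 gene called (1.78 ± 0.22, adjusted p = 0.00665). The block gave 3 higher and 8 lower genes in the first class and 2 and 7 in the second. Of all genes 5.66% and 5.02% were called in these classes without the block, and 22.1% and 16.8% with it.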

How the data were processed

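The deposited values of both libraries (1 condition) were UMI counts for each gene in each barcode. The authors made these counts with Cell Ranger, without normalization or a choice of cells. The submitters' processing notes name Cell Ranger 3.0.2 and mm10; the file headers give 3.0.2 for replicate 1 and 3.1.0 for replicate 2, and this difference could not be resolved. All value columns were used. The 9 genes, the gene lists and the comparisons were chosen with earlier results of these data known.

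Counts were summed per library and class, and edgeR 4.0.16 (quasi-likelihood F test, TMM, filterByExpr, Benjamini-Hochberg over all genes tested, threshold 0.05) was run in R 4.3.3 on 6, 4 and 8 sums, for the Myh11 and EC classes, the Il1rn classes and the cycling classes. DESeq2 1.42.0 was an alternative. The SE was the log2 fold change divided by the root of the F statistic. No p-value was made from cells, and an exact permutation of 2 against 2 values could not go below 0.333. The labels do not say that the replicates came from separate animals, so p-values measure at most the spread between these libraries. edgeR draws the variance of each gene toward that of all genes. In the block fit of the 4 Il1rn sums the p-values rest mostly on that shared variance, and less on the 2 cultures. The replicate numbers pair the sums, since those of a library come from 1 culture. Their deviations from the class means correlated across genes at 0.495 to 0.949 in the 6 pairs of classes compared, and the fit with the library as a block is given for each of the 9 genes wherever a call differs in it.

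The fits without the block were tested on simulated counts, those with it were not. The simulated counts held no difference between libraries, which the real sums do. That test therefore does not check the fits on paired sums. Doublets were kept, and no caller was run. Shares were also computed after thinning each cell to 3000 UMIs. The markers used for the free RNA estimate (barcodes of 1 to 100 UMIs) and the exclusion of cells with macrophage markers were chosen after seeing the data. Rgs3 and Rgs16 overlap with a gene on the other strand, and gene IDs (31011 of 31053) were matched to GENCODE M21 of GRCm38. Promoters are from RefSeq (GRCm38.p6), which held 10 for the 9 genes. Genes named beside the 9 were other RGS genes at 10 CPM or more in a class, pathway genes with the 3 largest changes in each direction among those called, and the 3 most like genes. Python 3.11.15 and pandas 2.3.3 were used.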

Additional observations from a re-analysis of the deposited data

How the results depend on the processing

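With 2 libraries of 1 condition, what the tests can call depends on whether the library is a block, and its use moved most counts. The 301 genes called for Myh11 high against Myh11 low cells became 2153 with the replicate block (1170 higher and 983 lower, against 245 and 56), 1129 with DESeq2 (762 and 367), 998 with Myh11 at least 10 against 0, 636 with Myh11 per 10000 UMIs, 104 in cells matched on UMI count and 70 without a filter on low counts. ECs against Myh11 high cells gave 2321 genes, and 3981, 1412 and 1514 with the block, in matched cells and without a filter. ECs against Myh11 low cells gave 2153 genes, and 4123 with the block and 1389 without a filter. The Il1rn comparison gave 0 genes, and 1968 with the block, 86 with DESeq2, 39 without a filter, 5 with Il1rn at least 2, and 2163 with the block and without cells with macrophage markers. The cycling comparisons gave 756 and 670 genes, and 2957 and 2244 with the block. The members called went from 0 to 3 with the block and 1 with DESeq2 for Myh11, from 3 to 5 with the block for ECs against Myh11 high, from 3 to 0 without a filter for ECs against Myh11 low, from 0 to 5 for Il1rn with the block and 4 when cells with macrophage markers were also left out, and from 0 to 2 in each cycling comparison with the block and 2 with DESeq2 in Myh11 high cells. The cause of these shifts was not tested.

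Of 502 log2 fold changes of members under alternatives, 468 kept their direction and side of the threshold, 24 passed it and 5 fell below it. The 5 that changed sign were not called: Rgcc in ECs against Myh11 high cells (0.54 when matched) and in cycling Myh11 high cells (0.15 when matched), Rgs4 by Il1rn (-0.0067 without a filter, -0.0198 with Il1rn at least 2), and Rgs7bp for the difference of the cycling effect (-0.0016 with the block). With 1 library left there are no residual degrees of freedom, so counts of calls could not be given. Of 108 log2 fold changes from 1 library, 41 lay farther from the fitted value than the SD of the 2 libraries. That SD is made from the same 2 values, so this count cannot show how far a result depends on 1 library. The 45 CPM values tried with at least 1000 UMIs per cell stayed within the SD of the libraries. So did the 36 with ECs kept in the other classes. These settings changed the CPM values by only -0.909 to 5.54% and -1.45 to 2.18%. The SD of the libraries is often wide, so staying within it says little. Thinning moved 39 of 45 shares, but it removes UMIs from each cell and so lowers shares by design. Depth limits the values in ECs, where Rgs4 and Rgs17 rest on a few UMIs, as does Rgcc in replicate 2.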
